A study of Mus musculus with 54 samples.

Results

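Chga, Chgb, Scg2, Scg3, Pcsk1, Scg5, Syp, Syt13, Baiap3 and Ap3b2 are 10 genes of the secretory granule and of regulated exocytosis. They were looked up by symbol, and each was found among the 48440 entries of the mRNA table and among the 27998 genes of the single-cell matrices. They were selected on their measured levels in germ-free and conventionalized mice, which were already known, so the differences between those groups are given as a description, with no test. The study measured mRNA and small RNA of the mouse small intestine. mRNA came from crypt cells of C57BL/6J mice that were sorted for low Sox9-EGFP, a fluorescent reporter of the crypt transcription factor gene Sox9, with 4 libraries each from mice on chow, mice on a high fat diet, germ-free mice (raised without microbes) and conventionalized mice (germ-free mice given a microbiota). Single intestinal cells came from 12 month old C57BL6/2J mice, wild type (WT) or miR-375 knockout (KO), with 1 sample of each genotype in each of 2 sets. Small RNA libraries of the same sorted population could be matched by animal number to 12 of the mRNA libraries, from chow, conventionalized and germ-free animals. The age of the sorted animals, the design of the reporter transgene and that of the knockout allele are not described in the labels.

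Enteroendocrine cells are the hormone-producing cells of the gut epithelium and package peptide hormones and serotonin in dense-core granules. Granins form the granule matrix, convertases cut prohormones inside the granule, and vesicle membrane proteins and calcium sensors bring granules to the plasma membrane and release them. miR-375 is a microRNA known from pancreatic islet cells and enteroendocrine cells, where it is abundant.

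The mRNA values are the authors' normalized counts, whose sum per library lay between 10680300 and 19117900. Values are compared within a gene, not between genes, because they are not scaled to transcript length. The sort was broad: the summed levels of 22 enteroendocrine marker genes made up 0.573% to 6.44% of a library, and none of the 22 was at 0 in all 16 libraries. The 4 single-cell samples held 1185 (WT) and 1229 (KO) cells in set 1 and 3156 (WT) and 3149 (KO) cells in set 2 after filtering, of which 30, 26, 27 and 39 in that order were enteroendocrine-like. Set 2 differed from set 1 before filtering, with a median of 40.9% and 37.9% mitochondrial UMIs (unique molecular identifiers, 1 per captured transcript) per barcode against 5.90% and 5.62%. WT and KO shared 1 cell barcode in set 1 and 3 in set 2, and the sets shared 0. The labels do not say whether libraries of 1 group came from separate litters or cages, nor how many mice gave each single-cell sample, so p-values measure only the spread between these libraries.

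The 4 granins had their highest group means in germ-free mice and their lowest on the high fat diet. Chga, which encodes chromogranin A (chr12:102554969-102565028, plus strand, GRCm38), reached 190837, 103271, 184321 and 89294.5 normalized counts in germ-free replicates 1 to 4. In conventionalized replicates 1 to 4 it was at 22022, 10446.7, 52697.5 and 39114.1. Every germ-free library lay above every conventionalized library, by 2.35 ± 0.59 on the log2 scale between the group means. The ± of this and the other germ-free to conventionalized differences is the SE from the libraries' own spread. Chow libraries held 59598, 35854, 187989 and 69202.5, and high fat diet libraries 6898.57, 37708.3, 16763.1 and 28808.3. Chow replicate 3 thus reached the germ-free range, while the other 3 chow libraries lay below every germ-free library.

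Chgb, which encodes chromogranin B (chr2:132781278-132795079, plus strand), followed the same order, with means of 201222 ± 70346 (SD, n = 4) in germ-free, 131810 ± 83992 in chow, 49398 ± 21752 in conventionalized and 35608 ± 19284 in high fat diet libraries. Scg2, which encodes secretogranin II (chr1:79434669-79440120, minus strand), was at 16135.1, 5889.98, 13497.1 and 7806.24 in germ-free libraries and at 883.124, 2463.01, 2121.2 and 2434.91 in conventionalized libraries. The lowest germ-free library exceeded the highest conventionalized library, and the log2 difference of 2.45 ± 0.49 was the largest among the granins. Scg2 chow libraries held 3089.63, 2539.35, 15611.7 and 6467.88, against 482.583, 1423.37, 1212.2 and 1523.61 on the high fat diet, so that these groups did not overlap either. Scg3, the secretogranin III gene (chr9:75643189-75684056, minus strand), ranged from 1948.11 to 3214.91 in germ-free and from 456.265 to 842.167 in conventionalized libraries, a log2 difference of 2.03 ± 0.28.

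Both prohormone processing genes showed the same order of groups. Pcsk1 encodes prohormone convertase 1/3, which cuts prohormones (chr13:75089826-75134861, plus strand). It was at 7070.85, 4225.28, 10177.2 and 4350.94 in germ-free libraries and at 1188.92, 936.433, 1806.79 and 1487.31 in conventionalized libraries, a log2 difference of 2.20 ± 0.37 between groups that did not overlap. Scg5 encodes 7B2, a chaperone of prohormone convertase 2 (chr2:113776362-113829121, minus strand), and ranged from 2212.74 to 4439.49 in germ-free against 340.219 to 878.725 in conventionalized libraries. Its difference was 2.21 ± 0.39 on the log2 scale. Scg5 and Scg2 were also the only members whose chow and conventionalized libraries did not overlap. The share of all genes without overlap is not given for these groups, so nothing is read from that.

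Among the genes of vesicle membrane and fusion, Syp had the largest germ-free to conventionalized difference of the 10 members. Syp encodes synaptophysin, an integral protein of small secretory vesicles (chrX:7638471-7653256, plus strand), and was at 2321.54, 1410.65, 3316.15 and 1607.91 in germ-free and at 260.788, 234.74, 509.476 and 479.822 in conventionalized libraries. This is a difference of 2.54 ± 0.40 on the log2 scale and a 5.83-fold ratio of the means. Syt13 (chr2:92915098-92956058, plus strand) encodes an atypical synaptotagmin, and its means were 2849 ± 988 in germ-free, 1388 ± 1131 in chow, 522 ± 185 in conventionalized and 321 ± 154 in high fat diet libraries (SD, n = 4). Baiap3, which encodes a Munc13-related protein of dense-core vesicle traffic (chr17:25242659-25256364, minus strand), had the smallest difference, 1.99 ± 0.24 on the log2 scale or 4.01-fold, with 783.115 to 1448.74 in germ-free and 227.989 to 371.499 in conventionalized libraries.

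Ap3b2 encodes the beta subunit of the neuronal form of the AP-3 adaptor, a coat that sorts cargo into vesicles (chr7:81460399-81493925, minus strand). It was at 692.011, 406.403, 771.074 and 855.766 in germ-free, 181.656, 131.405, 633.795 and 304.996 in chow, 108.596, 108.283, 169.652 and 161.585 in conventionalized and 27.2429, 87.4773, 90.8577 and 165.831 in high fat diet libraries. The groups kept the order of the other members, with a germ-free to conventionalized difference of 2.28 ± 0.30 on the log2 scale.

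**Figure D1:**
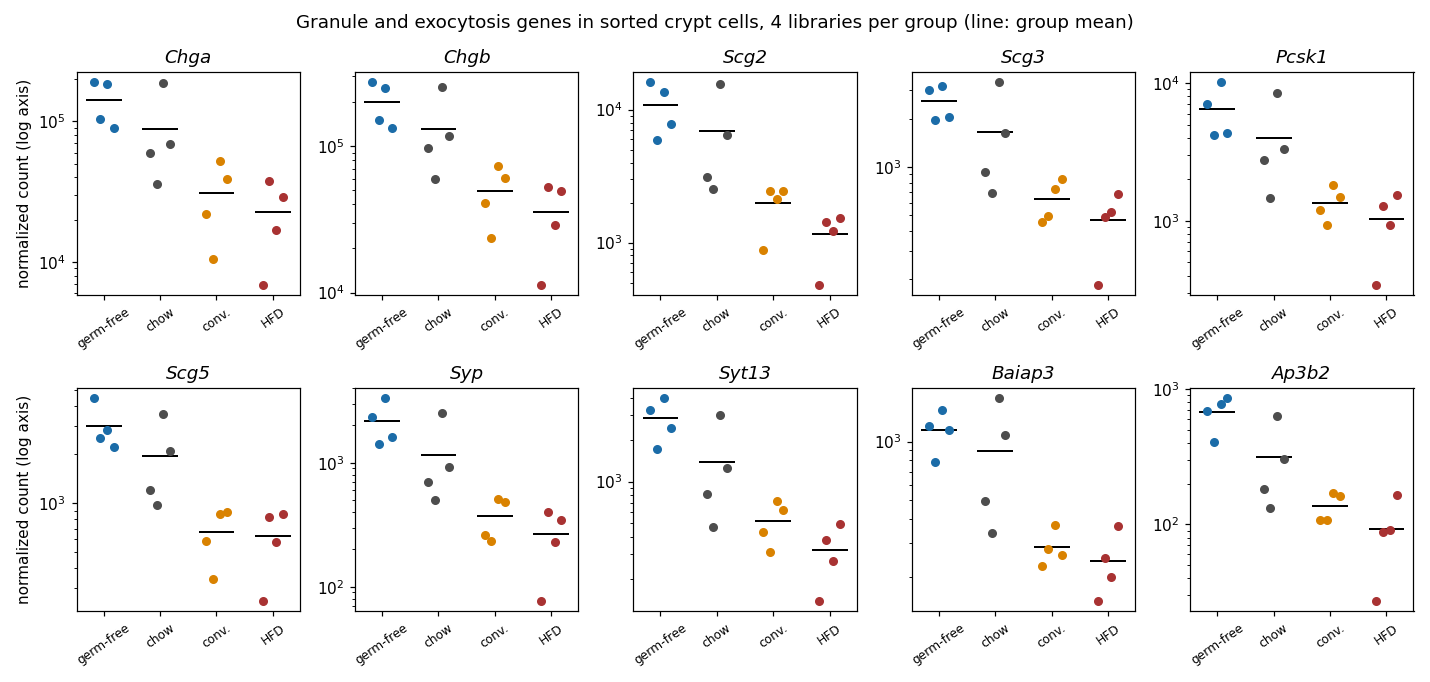
Normalized counts (log axis) of the 10 genes in each of 16 mRNA libraries, with 1 point per library and a line at the group mean; conv. stands for conventionalized and HFD for high fat diet. All germ-free points lie above all conventionalized points in every panel, and chow replicate 3 lies among or above the germ-free points. In the Scg2 and Baiap3 panels chow replicate 4 lies among them as well.

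All 10 members were thus in the order germ-free, chow, conventionalized, high fat diet by their means, and in 10 of 10 the germ-free and conventionalized libraries did not overlap (6.26% of the 20214 genes measured had every germ-free library above). Since these groups served to choose the members, nothing is read from that count. Most neighbours in the order were not separate beyond their spread: germ-free and chow libraries overlapped in 10 of 10 members, conventionalized and high fat diet libraries in 10 of 10, and chow and conventionalized libraries in 8, all but Scg2 and Scg5. Shares over all genes are not given for these pairs of groups, so the overlap counts only describe the members. The median of the members' log2 differences was 2.25 between germ-free and conventionalized mice, where the median over all genes was 0.11. Over all genes, limma called 453 of 20214 at an adjusted p under 0.05, 2.24%, and 394 of these were higher in germ-free mice, 1.95%. Without germ-free replicate 1 only 1 gene passed, and 146, 148, 253 and 272 passed without conventionalized replicates 1, 2 and 4 and germ-free replicate 3, so the number of calls rests on single libraries, while the members' median stayed between 2.01 and 2.42 with each library left out.

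A few libraries set the spread within groups. Chow replicate 3 was the highest chow library in 10 of 10 members, at 2.48 times (Scg5) to 3.87 times (Scg2) the mean of the other 3. Its values lay within the germ-free range for 8 members and above it for Scg3 and Baiap3. Chow replicate 2 was the lowest chow library and high fat diet replicate 1 the lowest high fat diet library in 10 of 10 members. The small RNA column of the animal behind chow replicate 3 names the high fat diet, against its label.

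The members varied together across the libraries. Each member's log2 level correlated with the mean of the other members at r = 0.96 to 0.99 over the 16 libraries, a description of libraries that share groups and depth. Of 12453 genes with a mean of at least 50 normalized counts, those whose log2 pattern was most like the members' mean were Neurod1 (r = 0.997), a transcription factor gene of enteroendocrine differentiation, Cxxc5 (0.992), a zinc finger gene, Prnp (0.990), the prion protein gene, Fev (0.990), a serotonergic transcription factor gene, and Bco1 (0.988), a carotenoid-cleaving enzyme gene. Neurod1 had means of 6003 in germ-free, 3558 in chow, 1130 in conventionalized and 808 in high fat diet libraries.

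Because the members varied together, the bases before their transcription starts were read from RefSeq promoters (GRCm38.p6), which were matched for 9 of the 10 members. The cAMP response element TGACGTCA, the site bound by CREB-family factors, was searched on both strands of the 250 bases before each start, together with its core TGACG, which it contains. The full element was in 3 of the 9 promoters, Chgb, Scg2 and Pcsk1, against 508 of 32851 promoters (1.55%), and TGACG was in 6 of the 9, against 17.8% of promoters. The 30 bases around the first match of each gene are given here on the gene's strand, 5′ to 3′, with the matched letters in capitals, because these 6 are the granule matrix and prohormone processing members.
Chga: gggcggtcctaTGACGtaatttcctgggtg
Chgb: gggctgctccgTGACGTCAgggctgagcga
Scg2: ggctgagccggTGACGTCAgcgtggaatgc
Scg3: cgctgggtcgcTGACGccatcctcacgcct
Pcsk1: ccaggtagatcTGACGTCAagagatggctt
Scg5: aaggaggtaaaTGACGttcataggggtcga
The windows lie at chr12:102554886-102554915 (Chga), chr2:132781559-132781588 (Chgb), chr1:79440076-79440105 (Scg2), chr9:75684068-75684097 (Scg3), chr13:75089768-75089797 (Pcsk1) and chr2:113829248-113829277 (Scg5). The annotations differ: RefSeq places the starts of Chgb, Scg2, Pcsk1, Scg5 and Syp further downstream than the GENCODE gene spans given above, and that of Chga further upstream. Part of the bases searched for Syp thus lay within its GENCODE span. The windows of Chgb and Scg2 therefore lie before the RefSeq start but within the GENCODE span. Distances are given to the RefSeq starts only. The matches shown begin 44, 72, 68, 30, 78 and 175 bases before the RefSeq start of Chga, Chgb, Scg2, Scg3, Pcsk1 and Scg5. Pcsk1 held a further TGACG on the same strand, 50 bases before its start and outside the window shown. The matrix and processing members all held the core, while the promoters of Syp, Baiap3 and Ap3b2 did not hold these letters in the window. Of 3 other motifs searched on both strands, GGGCGG was in 5 of the 9 (32.7% of all promoters), and CAGATG and TATAAA were in 0 of the 9 (14.4% and 12.4%). A match of letters is a description, not a bound site.

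Other genes of the pathway, apart from the AP-3 subunits, were mostly higher in germ-free than in conventionalized mice. Of 18 other genes of granule cargo, processing and granule formation, 9 were called higher and 0 lower (limma), with a median log2 difference of 1.80, as for Slc18a1 (2.55), a vesicular monoamine transporter gene, Ptprn (2.42), a granule membrane gene, and Vgf (2.31), a granule peptide precursor gene. Of 27 genes of SNARE proteins and regulated exocytosis, 10 were called higher and 0 lower, with a median of 1.41, including Cadps (2.58), a priming factor gene of dense-core vesicles. The 6 AP-3 subunit genes other than Ap3b2 had 0 calls and a median of 0.16, from -0.21 for Ap3b1, the ubiquitous beta subunit, to 0.46 for Ap3d1. The list was set up with the results for the members known.

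Genes of enteroendocrine identity differed in the same direction as the granule genes. Of 11 enteroendocrine transcription factor genes, 9 were called higher in germ-free mice (median 1.82), and of 11 hormone genes tested 2 were (median 1.87). Relative to the mean of the transcription factor list, the members were higher in germ-free than in conventionalized libraries by 0.20 (Baiap3) to 0.75 (Syp) on the log2 scale. The members' mean minus that list's mean was 2.31 to 2.62 in germ-free and 1.67 to 2.25 in conventionalized libraries. Relative to the hormone list the excess was smaller, 0.0073 (Baiap3), 0.05 (Scg3) and 0.10 (Chgb) to 0.56 (Syp). There the libraries overlapped, at -1.95 to -0.93 in germ-free and -2.14 to -1.24 in conventionalized mice. Since these groups served to choose the members, nothing is read from either excess. The summed enteroendocrine markers took 3.41% to 6.44% of germ-free and 0.907% to 1.64% of conventionalized libraries, with 22 of 22 markers higher in germ-free mice, and in these bulk samples fewer cells of a type and less RNA per cell cannot be told apart. Neurons use the same granule genes. Of 9 enteric neuron markers tested 9 were higher in germ-free mice, and the sum of all 10 was 0.00800% to 0.0190% of germ-free and 0.00234% to 0.00530% of conventionalized libraries (for the 10 members, 2.00% to 4.41% and 0.327% to 1.06%). The part of either cell type in the differences was not tested.

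The comparison of high fat diet with chow was not used to choose the members and was tested. The members were lower on the high fat diet in 10 of 10 cases, but 0 of 10 passed limma's adjusted threshold of 0.05, where 135 of 16421 genes passed (0.822%), 101 of them lower (0.615%). Scg2 had the largest difference, -2.32 ± 0.56 (SE, log2; adjusted p = 0.0755 with limma), and its groups did not overlap. The difference was -1.95 ± 0.60 for Chga (adjusted p = 0.0955), -1.87 ± 0.56 for Pcsk1 (0.0945) and -2.08 ± 0.58 for Syp (0.0892). The smallest difference was that of Scg5, -1.61 ± 0.46 (0.0918), and the highest adjusted p that of Ap3b2, 0.107.

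The members' median difference was -1.89, where the median over all genes was 0.05 and 45.6% of genes were lower on the high fat diet. All 10 had an unadjusted p between 0.00192 and 0.0140, as 26.7% of all genes had one under 0.05. The high fat diet libraries lay wholly below the chow libraries for 5 members, Chgb, Scg2, Scg3, Scg5 and Syp (7.36% of all genes). The calls depended on single libraries: without chow replicate 2, the lowest chow library, 10 of 10 members fell with adjusted p between 0.0279 and 0.0455 among 2590 called genes, while without any 1 of the 4 high fat diet libraries, or chow replicate 1 or 4, 0 genes passed (limma; 3054 to 4081 at an unadjusted p under 0.05). Without chow replicate 3 the median was -1.42 and 69 genes passed.

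**Figure D2:**
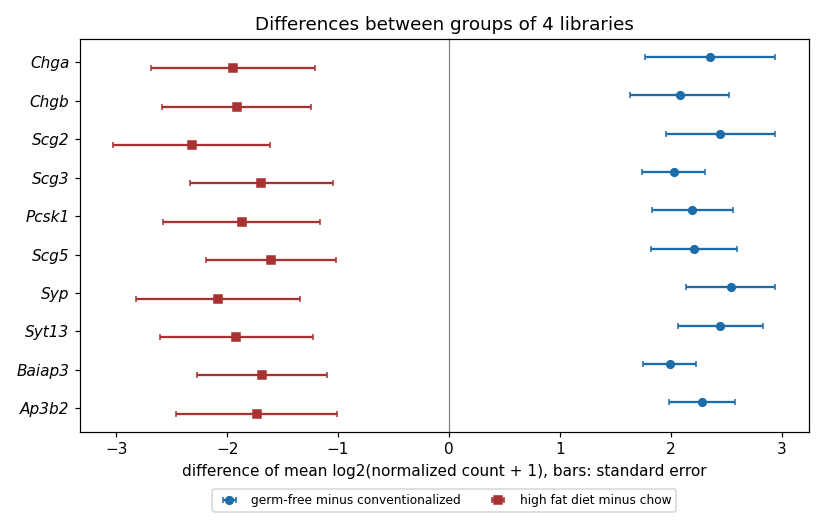
Difference of the mean log2(normalized count + 1) between groups of 4 libraries for each gene, with bars for the standard error from the libraries' own spread (not limma's moderated one); circles are germ-free minus conventionalized and squares high fat diet minus chow. All circles lie between 1.99 and 2.54 and all squares between -2.32 and -1.61.

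The same lists were read for the diet. Of 18 other granule genes, 1 fell, Scgn (-2.19, adjusted p = 0.0475 with limma), which encodes the calcium sensor secretagogin, and the list's median was -1.23. Vgf (-2.71) and Cpe (-2.11), the carboxypeptidase E gene, had larger or like values without passing. Of 25 SNARE and exocytosis genes tested 0 passed (median -1.11; Cplx1, a complexin gene, at -2.20 and Snap25 at -1.84), and of 6 other AP-3 subunits 0 passed (median -0.03, with Ap3m2 at -1.70). Of 11 transcription factor genes 1 fell (median -1.82), and of 11 hormone genes 0 passed (median -1.93).

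Relative to the transcription factor list, the members differed between the diets by -0.65 (Scg2) to 0.06 (Scg5), and relative to the hormone list by -0.42 to 0.29. The summed enteroendocrine markers were 0.573% to 1.56% of high fat diet and 1.83% to 6.39% of chow libraries, with 22 of 22 markers lower. Tuft cell markers, too, took 0.0988% to 0.221% of chow and 0.00820% to 0.0521% of high fat diet libraries. Their part in the difference was not tested.

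miR-375-3p was compared with the members in 12 animals that had both libraries, on the deposited scale of RPMMM, reads scaled to the total mapped to microRNAs. It stood at 119812, 106618, 198437 and 123624 in the animals of germ-free mRNA replicates 1 to 4. Chow animals held 55679.8, 35357.6, 144628 and 78793.8 in the same numbering, and conventionalized animals 42326.9, 31198.2, 86005.5 and 51228. The germ-free values lay above 3 of the 4 chow and all 4 conventionalized values, and chow replicate 3, high in the members, was the highest chow animal here as well.

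With the group as a term in the model, so that only differences between animals of 1 group count, 6 of 10 members had a slope on miR-375-3p that passed limma's adjusted threshold, all positive, where 165 of 19320 genes did (0.854%; 160 positive, 0.828%). The steepest slopes that passed were those of Syt13 and Syp. Syt13 rose by 1.14 ± 0.15 (limma's moderated SE) log2 units per log2 unit of miR-375-3p (adjusted p = 0.00874) and Syp by 1.07 ± 0.16 (adjusted p = 0.0128). Pcsk1 (1.05 ± 0.16, adjusted p = 0.0142), Scg3 (0.89), Baiap3 (0.88) and Ap3b2 (0.89) also passed. Chga had the steepest slope of all, 1.23 ± 0.27, but missed the threshold (adjusted p = 0.0546), as did Scg5 (0.81), Chgb (0.98) and Scg2 (0.93, adjusted p = 0.163). The members' median slope was 0.96, where the median over all genes was 0.08 and 55.8% of genes had a positive slope.

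After the group means were taken off, Syt13 had the highest Pearson correlation with miR-375-3p over the 12 animals, r = 0.943 (permutation p = 0.00033, two-sided), and Scg2 the lowest, r = 0.683 (permutation p = 0.0537). Spearman's rho ran from 0.587 for Scg2 (permutation p = 0.0914) to 0.958 for Syp and Syt13 (permutation p = 0.00022 each). These are 10 relations, and the adjusted values are those of the slopes over all genes. Without conventionalized replicate 2 and germ-free replicate 3, the farthest from the median of miR-375-3p so centred, r ran from 0.516 to 0.925.

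Within the groups the relation was not alike. The 4 chow animals stood in the same order for miR-375-3p and for 10 of 10 members, the 4 conventionalized animals for 6 (Chga, Chgb, Pcsk1, Syp, Syt13 and Ap3b2), and the 4 germ-free animals for 0 of 10, where the highest animal was the same for 5 members and the lowest for 7. The calls rested on the ends of the chow group: without chow replicate 2 or 3, 0 genes and 0 members passed (limma; 1901 and 1810 genes at an unadjusted p under 0.05), and 3 members passed without chow replicate 1 or 4 or germ-free replicate 2, against 8 (of 694 genes) without conventionalized replicate 2. Enteroendocrine, neuronal and stromal markers also had positive slopes (21 of 22, 9 of 9 and 6 of 6), and Paneth, stem cell and cycling markers negative ones (9 of 9, 10 of 10 and 13 of 13, with medians of -0.97, -0.42 and -0.66). The neuronal and stromal lists had 0 calls, and glial markers had a positive slope in 1 of 2 cases. Stromal markers were scarce, their whole list summing to 0.000145% to 0.00683% of a library in these groups. The part of these lists in the relation was not tested. Of the other pathway genes, 5 of 18 granule genes and 8 of 26 exocytosis genes rose with miR-375-3p, and of 6 other AP-3 subunits 0 passed, with a median slope of -0.07.

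**Figure D3:**
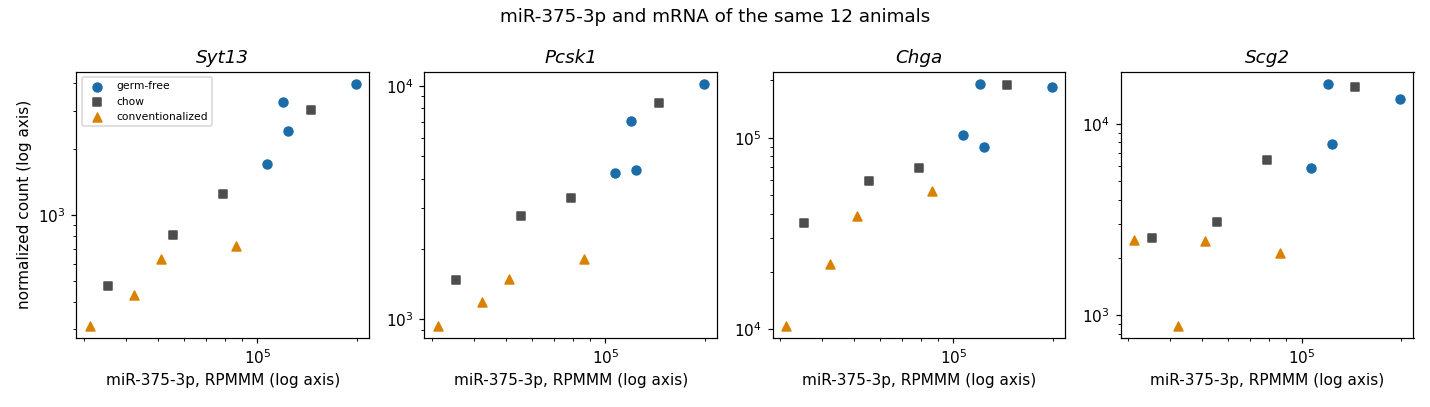
Normalized counts of Syt13, Pcsk1, Chga and Scg2 (log axis) against miR-375-3p in RPMMM (log axis), with 1 point per animal, 12 animals in 3 groups shown by colour and shape. The chow squares stretch from the conventionalized triangles up to the germ-free circles.

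In single cells the members marked the enteroendocrine-like cells, which were clustered without the granule genes and led by hormone genes such as Gip, Cck, Ghrl, Gcg and Sct. A median of 5 (WT) and 5 (KO) of the 10 members in set 1, and of 7 (WT) and 6 (KO) in set 2, had a UMI in an enteroendocrine-like cell, against 0 in the other cells of each sample. At least 5 members were found together in 66.7%, 69.2%, 88.9% and 71.8% of enteroendocrine-like cells and in at most 0.128% of the others. The median depth of enteroendocrine-like cells was 11446.5, 10151.5, 11307 and 7015 UMIs.

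The members differed in how much of their UMIs lay in this class. In the order WT and KO of set 1, then WT and KO of set 2, enteroendocrine-like cells held 92.5%, 94.8%, 78.5% and 95.7% of the UMIs of Chgb and 97.3%, 86.0%, 94.8% and 95.5% of those of Scg2. Ap3b2 was at 100%, 100%, 84.2% and 100%, on 4, 6, 16 and 7 UMIs within the class. Chga, in contrast, had 55.9%, 68.4%, 45.6% and 68.5% of its UMIs there, and Pcsk1 44.8%, 50.7%, 43.2% and 53.6%. Syp was at 48.28%, 59.09%, 50.85% and 44%, on 14, 13, 30 and 11 UMIs within the class. Baiap3 differed between the sets, with 86.5% and 70.0% in set 1 but 13.7% and 25.7% in set 2.

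**Figure D4:**
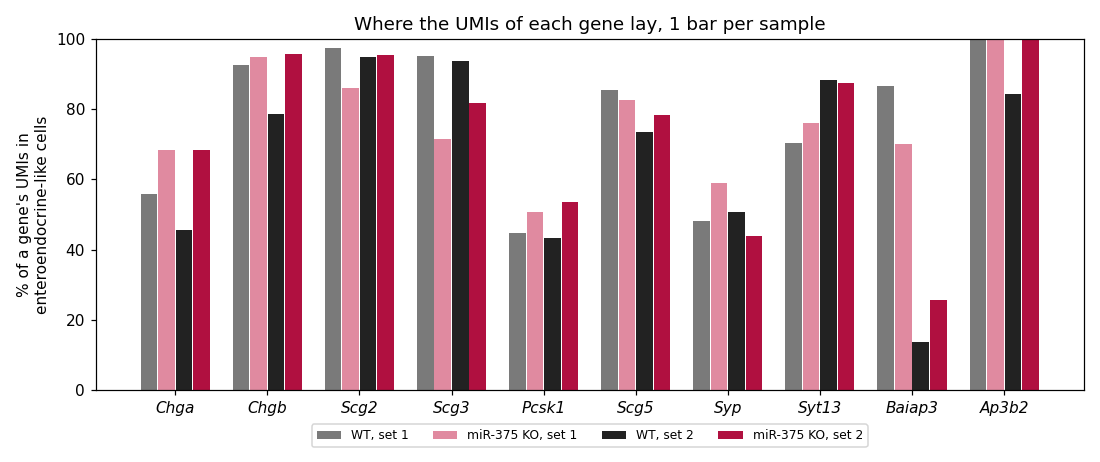
Percentage of each gene's UMIs that lay in enteroendocrine-like cells, with 1 bar per single-cell sample. Chgb, Scg2 and Ap3b2 bars stand at 78.5% or more, Chga, Pcsk1 and Syp bars between 43.2% and 68.5%, and the Baiap3 bars of set 2 at 13.7% and 25.7%.

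In set 2, most Baiap3 UMIs outside the class lay in T lymphocyte-like cells. It had a UMI in 13.3% of 1370 such cells of WT and 8.66% of 808 of KO (195 and 73 UMIs), at median depths of 2847 and 2093.5 UMIs, and in 9.65% and 7.51% of those thinned to 2000 UMIs. In the B lymphocyte or plasma-like cells of the same samples, which were shallower (medians of 1918 and 1480 UMIs), 0 of 128 and 0 of 46 cells had a UMI, which allows a share of cells with a UMI of up to 2.34% and 6.52% at that depth and sets no limit on cells that express the gene. In enterocyte-like cells a UMI was found in 0 of 465 and 1 of 744, at median depths of 26116 and 17805 UMIs. Set 1 held only 26 and 28 T lymphocyte-like cells, with 2 Baiap3 UMIs in each sample.

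Chga outside the class was found in several classes, among them enterocyte-like cells, the absorptive cells of the epithelium. Unnamed clusters held 33, 25, 231 and 75 Chga UMIs and cycling-like cells 40, 25, 49 and 36. The goblet-like cells of WT in set 2 held 169. In enterocyte-like cells Chga had 94, 107, 572 and 235 UMIs, in 17.3%, 22.3%, 49.9% and 18.6% of cells. Chgb had 25, 18, 11 and 21 UMIs in the same cells. The 2 genes thus stood in the opposite order to that in enteroendocrine-like cells, where Chgb had more UMIs than Chga in every sample. After thinning to 2000 UMIs, a Chga UMI remained in 2.09%, 2.55%, 6.37% and 2.19% of enterocyte-like cells, near the level of 1 UMI. In Paneth-like cells, at median depths of 36724 to 73555 UMIs, Chga was at no more than 0.0252 UMIs per 10000.

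In WT of set 2, where the share of Chgb was lowest, 6.85% of the goblet-like cells held 1124 Chgb UMIs between them. When enteroendocrine cells were taken by their transcription factor genes instead of by cluster, 95.3% to 97.7% of Chgb UMIs lay in them, while Baiap3 of set 2 stayed at 14.2% and 26.7%.

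Within the class, the cells with serotonin synthesis differed in granin levels from the rest. Cells with a UMI of Tph1, the rate-limiting enzyme of serotonin synthesis, numbered 5, 5, 4 and 12. In these, Chga was at 11.1, 53.5, 190 and 87.6 UMIs per 10000 UMIs, against 3.13, 4.08, 7.69 and 8.83 in the others, and so was higher in 4 of 4 samples. Chgb was also higher in 4 of 4 samples, with 53.1, 193, 511 and 430 against 26.1, 22.9, 106 and 77.7. Scg2 went the other way, with 0, 1, 0 and 3 UMIs in all in cells with Tph1, or 0, 0.176, 0 and 0.377 per 10000, against 1.90, 1.57, 7.08 and 7.22 in the others. Cells were split by a detected gene and were few, so no test was made.

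The knockout was compared with WT over the summed counts of enteroendocrine-like cells, 2 samples against 2. The deletion itself could not be checked, since the single-cell matrices have no row for Mir375. With edgeR's quasi-likelihood test, 0 of 5108 genes passed an adjusted p of 0.05 (0%; 34 genes, 0.666%, had an unadjusted p under 0.05), and 0 of the 9 members tested did. The log2 difference was 0.36 for Chga, with a 95% interval from -1.65 to 2.38, and 0.29 for Chgb (-1.96 to 2.55). For Syt13, the member with the firmest slope on miR-375-3p, it was 0.45 (-0.996 to 1.89), and for Syp -0.69 (-2.12 to 0.74). These intervals include a change of more than 1 log2 unit in at least 1 direction for 9 of 9 members. They depended on the set: the samples of a set deviated together (r = 0.65 across genes), and with the set number as a replicate block, which leaves 1 residual degree of freedom, the intervals were narrower. The difference was then 0.65 for Chga (0.03 to 1.27) and 0.40 for Chgb (0.05 to 0.74), at unadjusted p of 0.0417 and 0.0286 with edgeR. With the block, 4.72% of the 5108 genes had an unadjusted p under 0.05, and still 0 members and 0 genes passed the adjusted threshold. Under the block the intervals of Chgb, Scg2, Pcsk1, Scg5 and Baiap3 did not reach 1 log2 unit in either direction, and those of Chga, Scg3, Syp and Syt13 did.

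Within each set the genotypes can be read side by side, as UMIs per 10000 UMIs of the class. Chgb was at 32.3 (WT) and 49.4 (KO) in set 1 and at 154.7 and 178.1 in set 2, and Chga at 4.95 and 11.8, then 29.5 and 31.3. Pcsk1 was at 0.536 and 0.937, then 3.25 and 3.69. These 3 members were higher in KO in both sets, while Scg2, Scg3, Scg5 and Baiap3 were lower in both and Syp, Syt13 and Ap3b2 went opposite ways. The make-up of the class differed between the samples as well. In the order WT and KO of set 1, then of set 2, its cells held 84, 67, 1047 and 0 UMIs of the hormone gene Pyy and 464, 1, 23 and 1171 of the somatostatin gene Sst. Tac1 had 176, 499, 268 and 682 UMIs and Tph1 20, 33, 78 and 167, higher in KO in both sets. In the hormone list, Tph1 included, 5 of the 10 genes tested were higher in KO and 5 lower (median log2 difference -0.21, 0 calls). Of 10 enteroendocrine transcription factor genes tested, 7 were higher and 3 lower in KO (median log2 difference 0.38, 0 calls). The largest difference among them was that of Neurog3, 1.70, on 52, 93, 22 and 102 UMIs in the same order. Goblet markers were higher in KO in 6 of 6 cases (median log2 difference 0.76) and enterocyte markers lower in 7 of 9 (median -0.44), with 0 calls. The part of these genes in the members' values was not tested. Only Pcsk1 (higher) and Scg3, Scg5 and Baiap3 (lower) kept their direction in both sets under the 3 other ways of choosing cells: by transcription factor genes, with no doublet removal, and under a 15% mitochondrial limit.

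**Figure D5:**
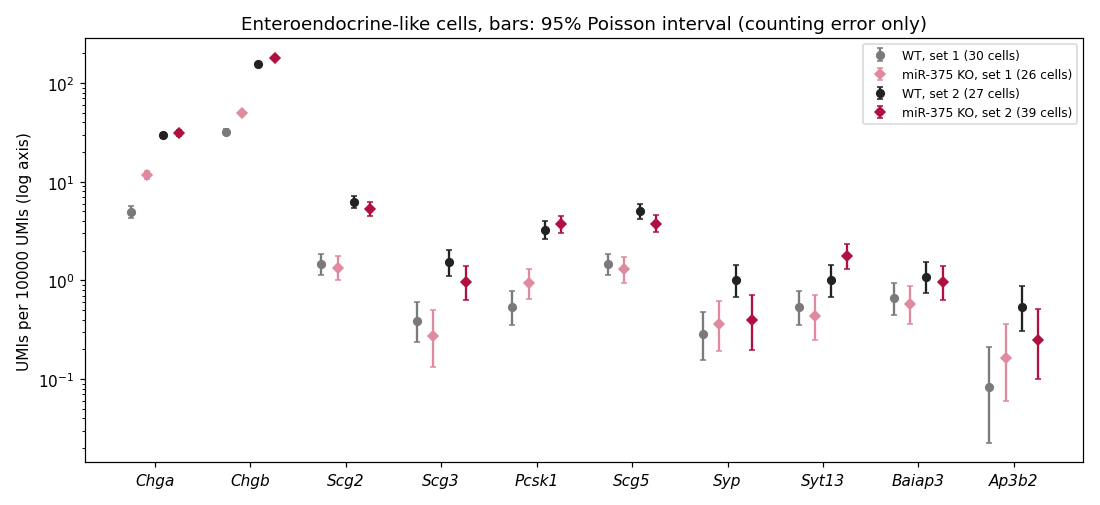
UMIs of each gene per 10000 UMIs of enteroendocrine-like cells (log axis), with 1 point per sample and bars for the exact 95% Poisson interval, which covers counting error only. The points of set 2 lie above those of set 1 for every gene, and genotypes within a set lie closer together than the sets for Chgb, at 32.3 and 49.4 against 154.7 and 178.1.

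The distance between the sets depended on which cells were taken. Both set 2 samples lay above both set 1 samples for 10 of 10 members with the cells used here, for 6 by transcription factor genes, for 7 with no doublet removal and for 2 under the 15% limit. The share of all genes with this pattern is not given here, so nothing particular to the members is read from these counts. With no doublet removal, the enteroendocrine-like cells of set 2 numbered 48 (WT) and 69 (KO) in place of 27 and 39, and those of set 1 30 and 25 in place of 30 and 26. Under the 15% limit the class held more cells of set 2, 65 and 84, and 29 and 26 of set 1. Over all kept cells, 0 of 13543 genes passed edgeR's adjusted threshold (0%; 83 genes, 0.613%, at an unadjusted p under 0.05) and the members lay between -0.67 (Baiap3) and 0.13 (Chgb) on the log2 scale. T lymphocyte markers were lower in KO in 9 of 9 cases over all kept cells, with a median of -0.72, and their part in the Baiap3 value was not tested.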

How the data were processed

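mRNA libraries of sorted cells were prepared with SMARTer Ultra Low Input and Nextera XT, small RNA libraries with the TriLink CleanTag kit and single-cell libraries with the 10X Chromium system, per the labels' protocols. The submitters' processing notes name Cell Ranger, STAR, Salmon, DESeq2 and mm10, without roles; the header of the set 2 matrices, per the file headers, names software version 3.0.1. The mRNA table holds the authors' normalized counts, a signal scaled between libraries. Of 48440 entries, 381 have no gene name and took 0.0338% to 0.0804% of a library, outside all tests. Only 66.6% to 73.9% of values came out as whole multiples of a library's smallest step (tolerance 0.01), so no count test was run on them. The small RNA table holds the deposited RPM of microRNAs, scaled to reads mapped to microRNAs (RPMMM), and 4 of its columns, whose names match no sample, were not used. The single-cell matrices hold the authors' raw UMI counts.

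Groups were compared with limma 3.58.1 (R 4.3.3) on log2(normalized count + 1), for genes with a mean of at least 10 in the libraries of the fit; Benjamini-Hochberg adjusted p under 0.05 was called. The slope on log2 miR-375-3p had the group as a covariate, with mRNA and small RNA libraries matched by group and animal number. The small RNA column of 1 chow animal (replicate 3) names the high fat diet, and an unmatched column names chow for the animal of 1 high fat diet mRNA library (replicate 3), against the labels, which were kept. Correlations used 100000 permutations. A fold on the log2(value + 1) scale understates changes of low genes.

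Cells needed 500 genes, 1000 UMIs and under 25% mitochondrial UMIs (9156 cells). Scrublet in scanpy 1.11.5 marked only 48 of these as doublets, so the highest scores were removed at 0.8% per 1000 barcodes, leaving 8719 cells. Each set was clustered on its own without 55 granule and exocytosis genes (2000 variable genes, 30 components, 15 neighbours, Leiden resolution 1). A name needed at least 3 markers of a class, and most of its list, 2-fold above the median cluster and above a minimal level. No other class could have more markers among the cluster's top 10 genes, and a shallow cluster needed a marker there. The names are rebuilt here, not the authors'. Summed counts per sample were tested with edgeR 4.0.16, with DESeq2 1.42.0 as an alternative; intervals on UMI counts are exact and cover counting error only. The fits were tested on simulated data with known changes.

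Alternatives were other pseudocounts, filters, groups in the fit, replicate numbers as a block, left-out libraries and other cell choices. The text names the members, the 3 genes of each pathway list with the largest differences and the 5 genes most like the members' mean. The members and lists were chosen with earlier results of these data known. Gene positions are from the GENCODE annotation of GRCm38 and promoters from RefSeq (GRCm38.p6). The other small RNA samples were not used here.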

Additional observations from a re-analysis of the deposited data

How the results depend on the processing

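The direction of the members' median was the same under every alternative run for the germ-free, diet, miR-375-3p and KO comparisons, but the share of all genes tested that passed was not. For germ-free against conventionalized mice it was 2.24% with the settings of the report, 8.27% (1672 genes) with all 4 groups in the fit, and 0.00493% to 3.38% with 1 library left out. For high fat diet against chow it was 0.822%, then 0.860% (317 genes, with 1 member, Scg2) with no filter, 0.201% (33 genes) with all groups in the fit, and 0.0744% (12 genes) without chow replicate 3 and high fat diet replicate 3 together, an alternative added after the data were seen. Leaving out 1 library gave 0% to 15.5% and 0 to 10 members. For the miR-375-3p slope it was 0.854%, then 28.6% (5526 genes) and 10 members, with a median slope of 1.25, without the group term, and 0% to 3.59% and 0 to 8 members with 1 animal left out (leave-one-out). The cause of these moves was not tested.

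Replicate numbers did not pair the mRNA libraries: same-numbered libraries correlated at -0.13 to 0.40 in their deviations from the group means. With the replicate block, 2.44% of genes (494) were called for germ-free against conventionalized mice, and 1.65% and 1 member (Scg2, adjusted p = 0.0407 with limma) for the diets. The single-cell sets did deviate together (r = 0.65 in enteroendocrine-like cells), and the replicate block left the calls at 0 there (4.72% of genes at an unadjusted p under 0.05).

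For KO against WT in enteroendocrine-like cells, 0.145% of genes (20) and 0 members were called with no filter on low counts. Syt13 turned to -0.0031 under the 15% mitochondrial limit. With 1 set left, with no test, Syp was at -1.32 without replicate 1 and at 0.28 without replicate 2, and Syt13 at 0.79 and -0.29. Over all kept cells, DESeq2 called 0.0365% of genes (7), and Syt13 turned to 0.14 with the replicate block. There, Chga was at -0.29 without replicate 1 and at 0.52 without replicate 2, and Syt13 at 1.00 and -0.83. Depth limited Ap3b2, with at most 16 UMIs per sample in the class, which the filter left out of the test.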
